A study of Mus musculus with 12 samples.

Results

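Transcription factors take part in forming the limb ectoderm and its apical ridge, the thickened rim of epithelium along the distal edge of the bud. This account follows 10 genes grouped as regulators of these tissues (Sp6, Sp8, Sp9, Trp63, Dlx1, Dlx2, Dlx5, Dlx6, Tfap2a and Tfap2b). It uses β-catenin and H3K27ac ChIP-seq of whole mouse forelimb buds, and the role of each gene was not tested. A peak summit, the position of highest read pile-up within a peak, was counted for a gene when it lay within 150 kb of the gene body in the mm10 mouse assembly. Dlx1 with Dlx2 and Dlx5 with Dlx6 are neighbours and share a window, which left 8 loci covering 2729 kb, and a summit near both genes of a pair was counted once. Across all 12 peak lists these loci held 419 of the 268431 summits. In the consensus lists, which keep summits found in both replicates, they held 30 β-catenin and 46 H3K27ac summits in control buds, and 0 and 45 after inhibition of WNT secretion.

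The embryos were wild-type Swiss Albino. Pregnant females received C59 or DMSO as the control when the embryos were at E10.5, and forelimb buds were collected 6 h later. C59 inhibits porcupine and therefore the secretion of WNT ligands. By the paper's methods the C59 solution also held methylcellulose and a detergent, which the control injection of DMSO in PBS lacked. Each of the 4 groups (β-catenin and H3K27ac, DMSO and C59) had 2 replicates, each made from 20 pooled buds, and the labels do not tie replicates to litters. The p-values below therefore measure the spread between these libraries only.

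When a WNT ligand binds its receptors, β-catenin is released from degradation, enters the nucleus and joins TCF/LEF proteins on DNA. H3K27ac is a histone mark of active promoters and enhancers. In the limb, WNT signalling in the ectoderm is needed to form the ridge. Sp6 and Sp8 are zinc-finger factors of that ectoderm that act together in ridge formation, and Sp9 is their close relative. Trp63 encodes p63, which is required for stratified epithelium. The Dlx genes are homeobox genes arranged in convergent pairs, of which Dlx5 and Dlx6 are required for the central part of the ridge. Tfap2a and Tfap2b encode AP-2 factors of ectoderm and neural crest.

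At 6 of the 8 loci at least one control β-catenin summit carried a TCF/LEF core within the 200 bp window centred on it. The core was searched as ATCAAAG or TTCAAAG on both strands. The window of the strongest such summit is printed here for 5 of these loci. The comparison with C59 below counts all summits, with or without a core. Each runs 5′ to 3′ on the plus strand of mm10 (read from the GRCm38.p6 assembly), with the core in capitals.
Sp8, chr12:118847100-118847299, intron of Sp8: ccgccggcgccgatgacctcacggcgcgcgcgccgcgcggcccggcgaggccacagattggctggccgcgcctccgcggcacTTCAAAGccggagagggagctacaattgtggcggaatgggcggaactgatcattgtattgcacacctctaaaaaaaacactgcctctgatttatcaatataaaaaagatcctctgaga
Sp9, chr2:73140019-73140218, intron of Ola1: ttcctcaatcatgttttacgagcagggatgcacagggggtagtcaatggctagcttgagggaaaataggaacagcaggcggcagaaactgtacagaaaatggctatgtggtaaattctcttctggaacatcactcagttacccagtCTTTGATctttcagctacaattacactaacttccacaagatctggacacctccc
Dlx1 and Dlx2, chr2:71573854-71574053, intergenic: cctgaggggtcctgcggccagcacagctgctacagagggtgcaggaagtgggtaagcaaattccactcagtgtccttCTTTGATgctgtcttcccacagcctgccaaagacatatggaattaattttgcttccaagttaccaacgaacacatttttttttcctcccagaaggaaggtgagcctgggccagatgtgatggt
Tfap2a, chr13:40646106-40646305, intergenic: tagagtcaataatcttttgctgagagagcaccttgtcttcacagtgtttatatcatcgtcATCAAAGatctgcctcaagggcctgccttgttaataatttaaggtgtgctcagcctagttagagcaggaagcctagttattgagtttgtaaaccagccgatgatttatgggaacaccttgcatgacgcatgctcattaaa
Tfap2b, chr1:19337380-19337579, intergenic: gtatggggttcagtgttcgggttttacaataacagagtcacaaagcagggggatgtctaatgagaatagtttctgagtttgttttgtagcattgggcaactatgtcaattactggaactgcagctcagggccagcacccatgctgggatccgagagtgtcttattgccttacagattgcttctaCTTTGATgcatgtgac

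A further 5 core-carrying summits are shown as 27 bases around the core, in the same orientation. They include the summit at the Sp9 start site.
Sp9 start site, chr2:73271893-73271919: ccagcggcacTTCAAAGcgggtgctcc
Trp63, upstream, chr16:25578073-25578099: cctgggactcCTTTGAAgttctgtttg
Trp63, upstream, chr16:25580288-25580314: ctagggctctCTTTGATttataggcaa
Tfap2a, intron, chr13:40719909-40719935: caattagagcATCAAAGccctctctgc
Tfap2b, upstream, chr1:19205778-19205804: ggtgagtttgCTTTGAAgccccgattc

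In total 11 of the 30 control summits at the 8 loci held a core, a share of 36.7% (95% Wilson interval 21.9 to 54.5%). Over all control β-catenin summits the share was 28.6%, inside that interval, and over all control H3K27ac summits it was 4.28%. Of the 300 bp promoter windows that RefSeq gives for mouse genes, 8.65% held one. The 11 cores lay a median of 25 bp from their summits, and 9 of them lay within 50 bp. The core under the Sp9 start-site summit was 10 bp away from it. The loci of Sp6 and of Dlx5 and Dlx6 had no summit with these letters.

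The libraries as a whole were as follows. Solving the deposited fold enrichments and p-values for read coverage gave 2.93 to 3.42 Gb of sequenced fragments for β-catenin and 5.03 to 5.93 Gb for H3K27ac. The β-catenin lists held 20203 and 25836 summits in control buds and 330 and 358 after C59. On background coverage a β-catenin peak had to reach 3.50-fold and 3.20-fold in the control lists, and 4.24-fold and 4.26-fold in the C59 lists. In control buds 8 of 8 limb mesenchyme markers had an H3K27ac summit less than 1 kb from a start site, and so had 2 of 10 limb ectoderm markers, Epcam and Tfap2c. After C59 the counts were 8 of 8 and 1 of 10, the one being Cdh1. These are consensus counts. In the replicate lists Epcam had such a summit in all 4. Tfap2c lacked one in C59 replicate 2 only, and Cdh1 in control replicate 1 only. Muscle precursor markers scored 2 of 3 in both conditions, endothelial markers 0 and 2 of 4, blood markers 1 and 2 of 4, neural markers 0 of 4 in both and the hindlimb pair Pitx1 and Tbx4 1 of 2 in both. The keratin genes Krt5, Krt8, Krt14 and Krt18 and the ridge gene Fgf8 had none in either consensus list. The part of these marker differences in the results below was not tested. In a whole bud, fewer cells of a type and less signal per cell cannot be told apart.

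The first question was whether β-catenin occupied chromatin around these genes in control buds, and what remained when WNT secretion was blocked. Each of the 10 genes had at least one β-catenin summit within 150 kb in both control replicates, and none had one in either C59 replicate. The control libraries held 35 and 43 summits over the 8 loci, and the C59 libraries 0 and 0. The groups did not overlap, with a difference of 39.0 summits between the means (control 39.0 ± 5.66, C59 0.0 ± 0.0, SD, n = 2 each, exact two-sided permutation p = 0.333, the smallest that 2 against 2 libraries allows). Of all 21938 protein-coding genes, 74.1% had more summits in both control than in both C59 replicates. Counting only control rows as significant as the weakest peak that both C59 lists accepted left 27 and 33 summits against 0 and 0.

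**Figure D1:**
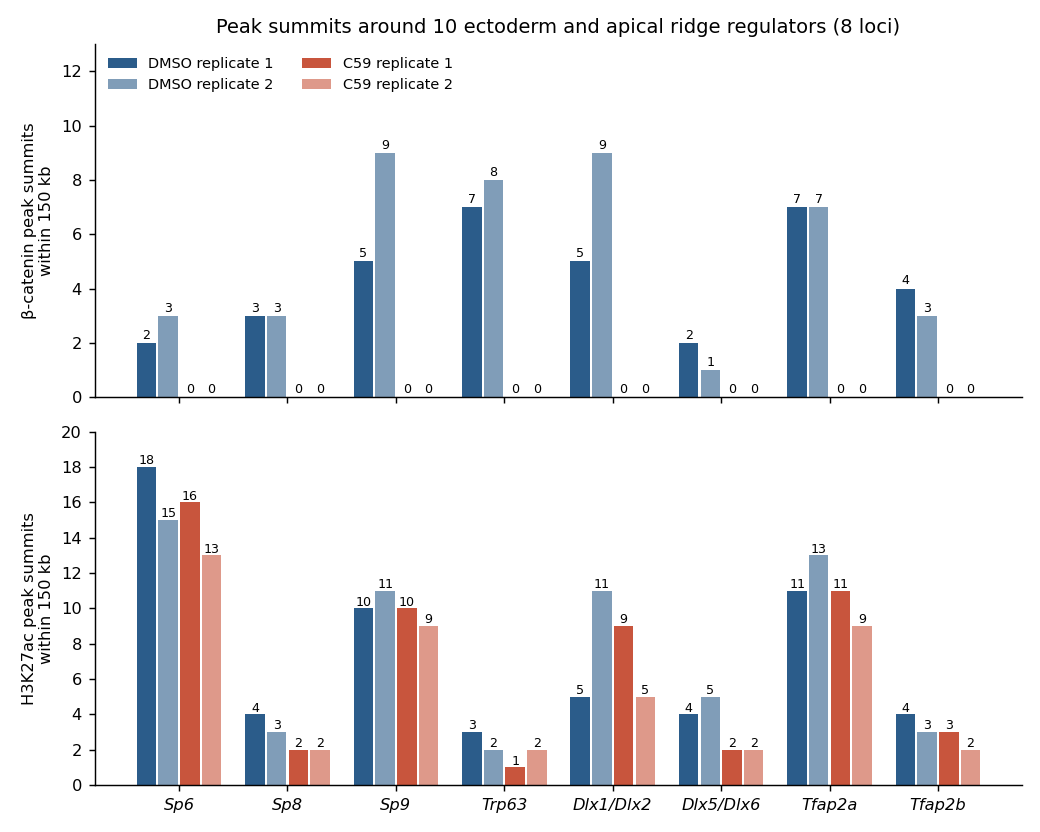
Number of β-catenin (top) and H3K27ac (bottom) peak summits within 150 kb of the gene bodies at each of the 8 loci. Each bar is 1 library, with its count printed above it. The control (DMSO) bars in the top panel reach 9 and every C59 bar is at 0, whereas the H3K27ac bars of the 2 conditions overlap at 6 of the 8 loci.

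The count was lowest at Dlx5 and Dlx6, with 2 and 1 summits in the 2 control replicates. Sp6 had 2 and 3, Sp8 3 and 3, and Tfap2b 4 and 3. Tfap2a had 7 and 7, Trp63 7 and 8, and both Sp9 and the Dlx1 and Dlx2 pair had 5 and 9. The first 4 of these loci had 1 to 4 summits a library and the others 5 to 9. The order was set by these same counts, so the gap is no separate result. In the control consensus list all 10 genes had a summit, where 68.4% of all protein-coding genes did. The members had a median of 3.5 summits and all genes a median of 1.0. With 6 summits each, Sp9, Dlx1, Dlx2 and Tfap2a stood above 91.8% of genes, and Trp63 with 5 stood above 87.3%, in a window that its long gene body widened to 508 kb. Sp6, Sp8 and Tfap2b with 2 stood above 52.6%, and Dlx5 and Dlx6 with 1 above 31.6%. Per Mb of sequence the loci held 11.0 control consensus summits and the genome 5.94. The loci are windows around genes, whereas the genome figure includes sequence far from any gene. By the same measure control H3K27ac stood at 16.9 against 11.5 summits per Mb. Yet the members had a median of 3.5 control H3K27ac consensus summits in the window and all genes 7.0.

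**Figure D2:**
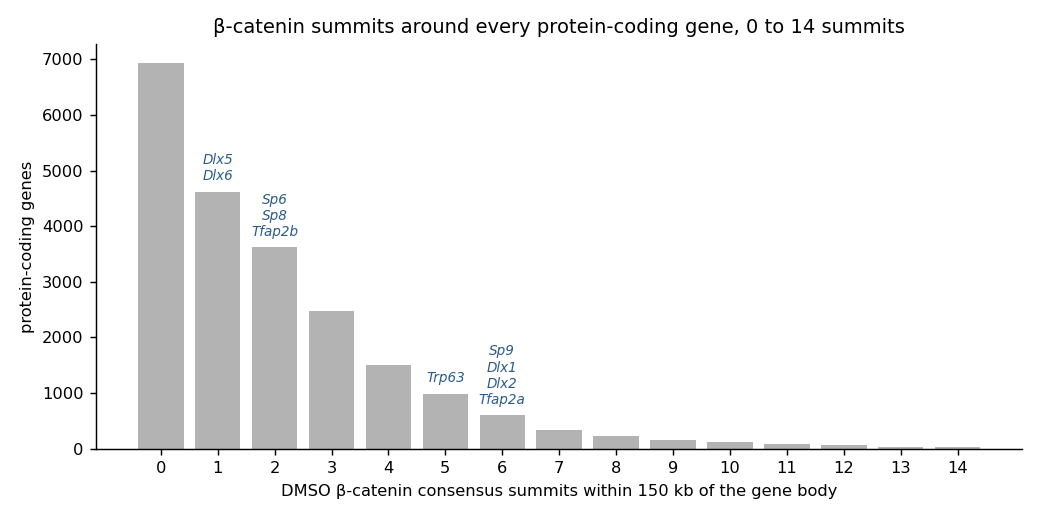
Number of protein-coding genes (vertical axis) with each number of control β-catenin consensus summits within 150 kb of the gene body (horizontal axis, shown up to 14), with the 10 members written above the bar they belong to. The members spread from 1 to 6 summits, and the bar at 0 holds none of them.

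The summits were not unusually high. Fold enrichment in the authors' control consensus list ran from 3.69 to 14.985 at the 8 loci with a median of 6.04, against a median of 6.76 over all summits, which 11 of the 30 exceeded. None of the 30 lay inside a C59 consensus peak (upper Wilson limit 11.4%), and over all control summits 1.12% did, so a count of 0 in 30 is close to the background.

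Positions relative to the genes varied. Of the 30 summits, 14 lay in introns of protein-coding genes, 12 between genes and 4 in introns of non-coding genes. Only 5 were inside the body of a member and 2 were less than 1 kb from a member's start site, while another 5 were less than 1 kb from the start site of a different gene. For 19 of the 30 the nearest protein-coding start site was that of a member. A summit in a window is therefore not assigned to the member by this count.

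Among the Sp genes, the 2 summits at start sites belonged to Sp8 and Sp9. The Sp8 summit, 386 bp from the nearest annotated start site and inside the first window printed above, had fold enrichments of 5.77 and 6.26 in the control replicates and 7.02 in the consensus. The Sp9 summit lay 9 bp from the start site, with 6.86 and 4.35 in the replicates and 6.56 in the consensus. Of all protein-coding genes, 9.04% had a control consensus summit at a start site, and 2 of the 10 members did. Neither position had a peak in a C59 list, where a peak on background needed 4.24-fold or more.

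Sp9 had the taller summits further out, both in introns of Ola1, its neighbour upstream. The one 79.0 kb upstream of Sp9 reached 12.0 and 10.2 in the replicates and 13.1 in the consensus, without a core. The one 131.8 kb upstream reached 9.78 and 10.8, and 11.3 in the consensus, with the core printed above 49 bp from its summit. The second summit at Sp8 lay 42.8 kb upstream between genes, at 4.96 and 3.91. At Sp6 the 2 consensus summits, 5.05 and 3.98, both lay at the start site of Tbkbp1, 138 kb from the 5′ end of Sp6. In both replicates they fell in 1 peak with 4.40 and 4.44.

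The highest of the 30 summits was in the Trp63 window, with 13.6 and 14.6 in the replicates and 14.985 in the consensus. It lay 358 kb from the 5′ end of Trp63, beyond its 3′ end, in an intron of P3h2 and 573 bp from the start site of AU015336. Upstream, a summit 106 kb from the 5′ end reached 7.58 and 7.49, and a weaker one 103 kb away reached 3.76 and 4.21. Both carried a core.

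The Dlx1 and Dlx2 pair was flanked on both sides. A summit 27.2 kb upstream of Dlx2 reached 8.47 and 9.37, and 10.3 in the consensus, with a core 20 bp away. A summit 44.2 kb upstream of Dlx1, in an intron of Metap1d, reached 7.44 and 8.05, and 9.76 in the consensus, without one. A weaker summit of 3.51 and 5.00 lay between the 2 genes in the antisense transcript Dlx1as. The single consensus summit of Dlx5 and Dlx6 lay 20.9 kb upstream of Dlx6, in an intron of the long non-coding gene Dlx6os1, at 7.07 and 8.20.

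Tfap2a had 2 tall summits. One, 92.2 kb downstream of the 5′ end and outside the gene, reached 10.3 and 12.8 and 13.3 in the consensus. The other lay in an intron 18.5 kb downstream of the 5′ end, at 5.79 and 9.56 and 8.46 in the consensus. Both carried a core. Control replicate 1 alone also had a peak of 3.60 at a distance of 164 bp from a Tfap2a start site, which replicate 2 and the consensus lacked. The 2 Tfap2b summits, 3.10 kb upstream and 129 kb downstream of the 5′ end, were among the lower ones at 3.50 and 4.98 and at 5.06 and 5.33, and both carried a core.

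**Figure D3:**
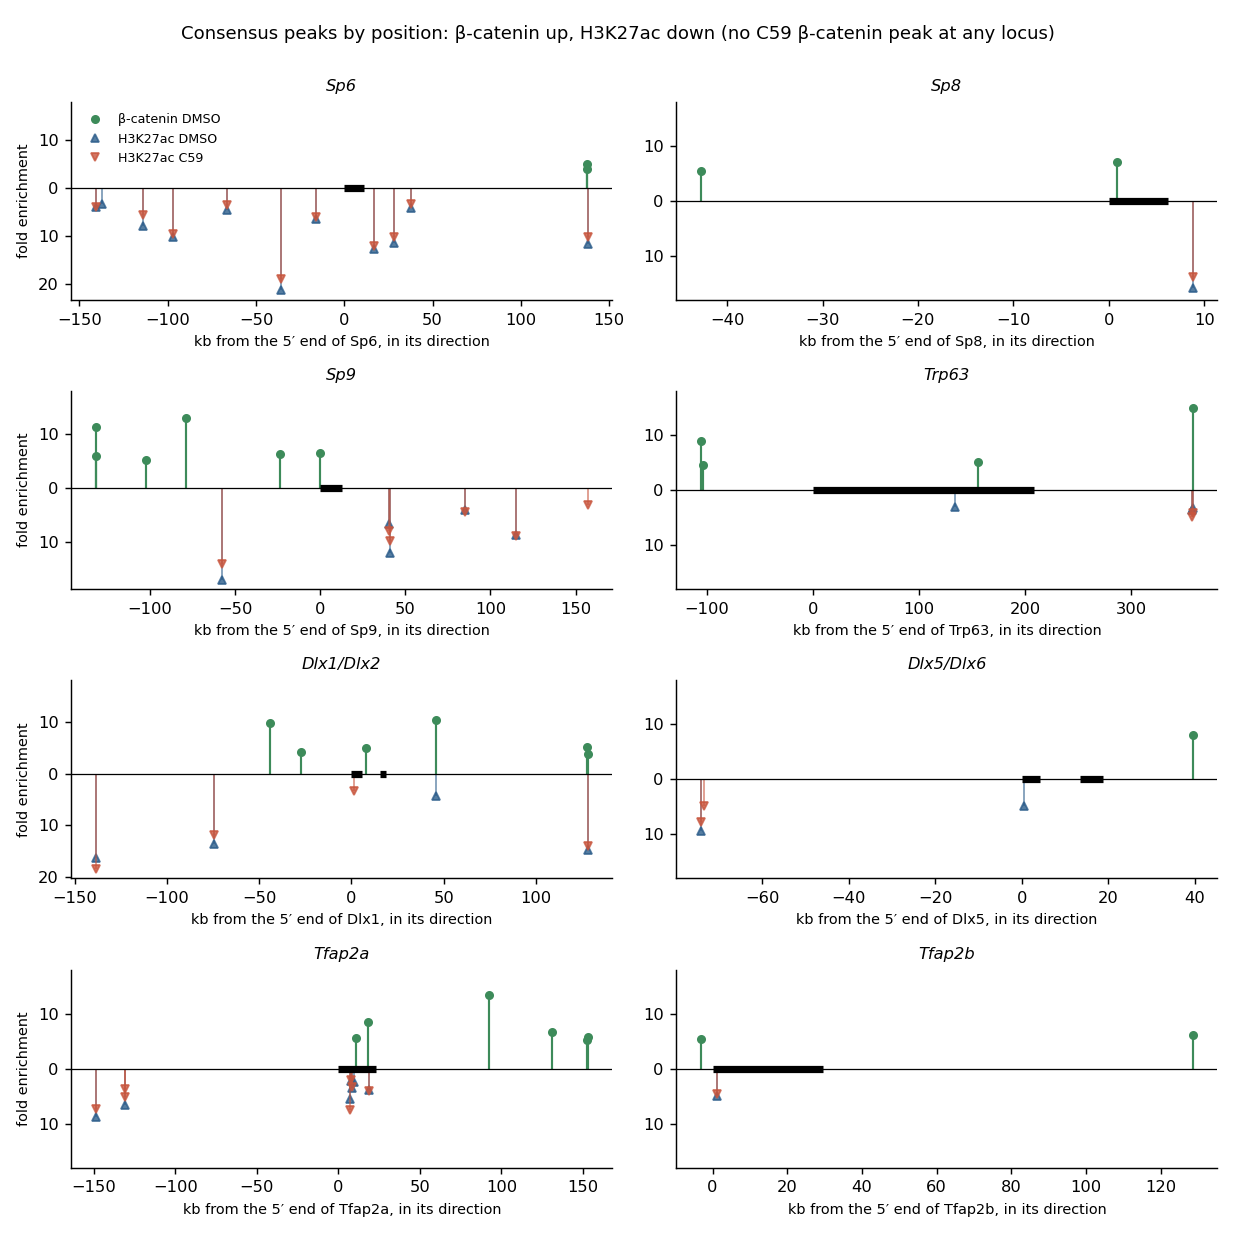
Consensus peaks along the 8 loci. The horizontal axis is the distance in kb from the 5′ end of the named gene, black bars are the member genes, green circles above the line are control β-catenin summits and triangles below it are H3K27ac regions (blue control, red C59), both by fold enrichment. Of the 30 summits 1 is not plotted. Green summits stand mostly away from the triangles, and the blue and red triangles sit largely at the same places.

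Next, β-catenin was set beside H3K27ac in control buds. Only 5 of the 30 β-catenin summits lay inside a control H3K27ac peak (16.7%, 95% Wilson interval 7.34 to 33.6%), and 22.1% of all control β-catenin summits did. In the lists of replicate 1 alone it was 3 of 35 (8.57%), and in those of replicate 2 alone 9 of 43 (20.9%). Of the 5, 2 were the Tbkbp1 start-site summits in the Sp6 window. A further 2 were neighbouring summits 109 kb upstream of Dlx2, in an intergenic H3K27ac region. The fifth was the Tfap2a intron summit. The summits at the Sp8 and Sp9 start sites, both Trp63 upstream sites and the strongest summits of Sp9 and of Tfap2a were outside H3K27ac peaks. At Dlx2 the merged H3K27ac region ended 60 bp short of the β-catenin summit. With the C59 H3K27ac list 6 of the 30 positions were inside a peak, the added one being the P3h2 intron summit of the Trp63 window. The merged H3K27ac region there had a peak in all 4 replicate lists, at 3.29 and 3.27 in control and 3.73 and 4.24 in C59 buds. Its control consensus peak did not reach the summit.

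H3K27ac at the genes' own start sites was sparse. In the control consensus list 3 of the 10 members, Dlx5, Tfap2a and Tfap2b, had a summit less than 1 kb from a start site, and 52.2% of protein-coding genes did. After C59 it was again 3, Dlx1, Tfap2a and Tfap2b, against 51.2% of genes. Sp6, Sp9, Trp63 and Dlx6 had none in any of the 4 replicate lists.

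At Dlx5 the control replicates had peaks of 4.61 and 3.60 518 and 693 bp from the start site, and 4.75 in the consensus, and neither C59 replicate had one. These were low peaks, since 2.83 to 3.02-fold sufficed for a call on background in the 4 H3K27ac lists. At Dlx1 peaks were called in all 4 lists, at 3.52 and 2.83 in the control and 3.59 and 3.27 in the C59 replicates, but the 2 control peaks did not overlap and the control consensus list held none. At Dlx2 control replicate 2 (3.35) and C59 replicate 1 (3.36) had a peak and the others had none. At Sp8 only control replicate 1 had a peak, of 4.24. Inside Sp8 but past the 1 kb limit, all 4 lists had a peak, though not all at the same place. These stood at 4.05 and 3.56 in the control and 3.59 and 4.02 in the C59 replicates.

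**Figure D4:**
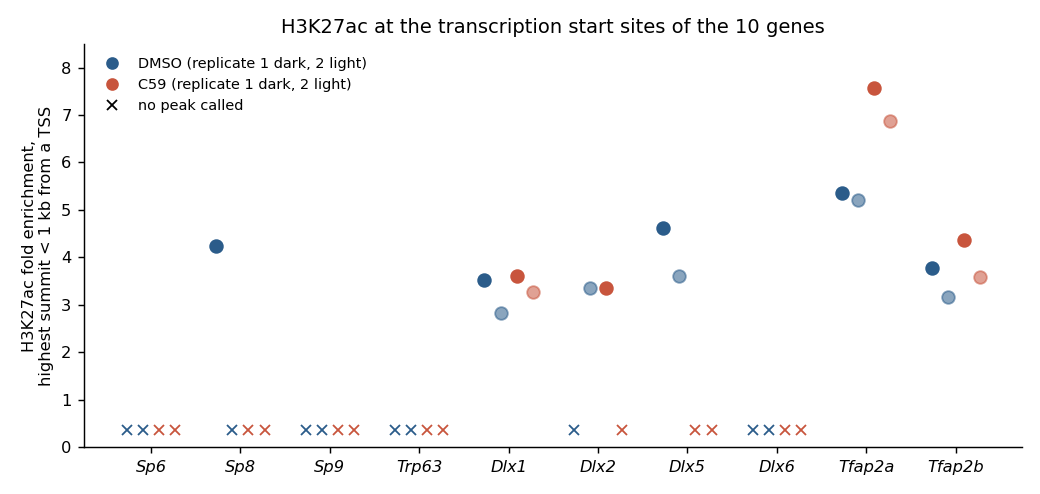
Fold enrichment of the highest H3K27ac summit less than 1 kb from a start site of each gene (vertical axis), 1 symbol per library, with a cross near the axis where no peak was called. Dlx5 has peaks in the 2 control libraries only, and at Tfap2a the 2 C59 libraries (7.58 and 6.87) lie above the 2 control libraries (5.36 and 5.21). The Tfap2a difference did not pass the adjusted threshold given below.

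Tfap2a had the most H3K27ac summits at start sites of the 10 genes, with 5 control consensus summits and 4 C59 consensus summits less than 1 kb from one of its start sites. Its tallest region, chr13:40731182-40731787 in an intron of the annotated gene 169 bp from an internal start site, stood at 5.36 and 5.21 in control and 7.58 and 6.87 in C59 buds. The fitted difference, C59 minus DMSO on the log2 scale of fold enrichment, was 0.48 (SE 0.11, 95% interval 0.20 to 0.75). It was the highest difference among the fitted regions at the member loci. The limma adjusted p was 0.402, so this difference did not pass the threshold of 0.05. The other start-site regions of Tfap2a that were present in all 4 lists differed by -0.05 and -0.16 with intervals that spanned 0. On read coverage in place of fold enrichment the 3 differences were 0.21, -0.34 and -0.46, none of which passed the threshold either. Start-site regions of Tfap2a were also called in control lists only, and these could not be fitted. The region chr13:40728359-40728683 stood at 2.57 and 2.41 in the control replicates. The region chr13:40737795-40738024 stood at 3.70 in control replicate 2 alone. At Tfap2b the region beside the start site reached 4.75 and 4.75 in control and 4.37 and 3.59 in C59 buds, a log2 difference of -0.24 (95% interval -0.54 to 0.07, limma adjusted p = 0.558). Its tallest summit lay 1020 bp from the start site in control replicate 2 but 974 and 978 bp in the C59 replicates, so the 1 kb limit of the plot admits it in the C59 libraries only.

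The second question was whether H3K27ac around the genes changed within the 6 h. The control replicates held 59 and 63 summits over the 8 loci and the C59 replicates 54 and 44. The control libraries were both higher, by 12.0 summits between the means (61.0 ± 2.83 against 49.0 ± 7.07, SD, n = 2 each, exact two-sided permutation p = 0.333, again the smallest possible). Over all assembled chromosomes the same libraries held 35218 and 37886 against 37181 and 33131 summits, which overlap, and C59 replicate 2 was the lowest there as at the member loci. Without that library the difference at the member loci was 7.0 summits. In the consensus lists the counts were 46 and 45. By locus both control counts exceeded both C59 counts at Sp8, with 4 and 3 against 2 and 2, and at Dlx5 and Dlx6, with 4 and 5 against 2 and 2. These loci hold 3 of the 10 members, and 13.9% of all protein-coding genes showed the same order. In the Sp8 window each region called only in control lists had a peak in 1 replicate alone. They included regions in introns of Abcb5, 74.5 and 78.5 kb beyond the 3′ end of Sp8. At Sp6 the counts were 18 and 15 against 16 and 13, at Sp9 10 and 11 against 10 and 9, at Trp63 3 and 2 against 1 and 2, at Tfap2a 11 and 13 against 11 and 9, and at Tfap2b 4 and 3 against 3 and 2. The Dlx1 and Dlx2 window had 5 and 11 against 9 and 5, a wider spread between replicates than between conditions.

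After overlapping peaks of the 4 lists were merged, the loci held 67 H3K27ac regions, of which 29 were present in all 4 lists (43.3%) and 26 in 1 list only. Over the genome 51.3% of 34047 regions were in all 4. A peak in both control and neither C59 list was found at 5 of the 67 regions (7.46%), and genome-wide at 3.03%. The reverse was found at 1 region (1.49%), in the Sp9 window, and genome-wide at 2.15%. The 5 were the Dlx5 start site, the region 27.02 kb upstream of Dlx2 beside the β-catenin summit (3.29 and 3.60), 1 region within Trp63 (3.52 and 2.83), 1 within Tfap2a (2.57 and 2.41) and 1 in the Sp6 window (3.19 and 3.36). Each stood at no more than 4.61-fold in the replicate lists, and whether their absence from the C59 lists reflects the call limit was not tested.

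Of the 32 control consensus regions at the loci, 27 overlapped a C59 consensus region (84.4%, 95% Wilson interval 68.2 to 93.1%), and over the genome 87.0% did. Of the 31 C59 regions, 28 overlapped a control region (90.3%), against 89.3%. Both shares differed from the genome's by less than their counting error.

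Heights were compared at the 29 regions present in all 4 lists, within a limma fit over all 17475 such regions. No region at the 8 loci passed an adjusted p of 0.05, and none did in the genome (0.0% called). At an unadjusted p below 0.05 there were 3 of the 29 and 1777 (10.2%) of all regions. The 3 were the Tfap2a region above, a region in the Sp6 window 114 kb upstream of that gene (7.05 and 6.95 in control, 4.79 and 5.63 in C59 buds, log2 difference -0.40) and a region in an intron of Gcnt2, 131 kb upstream of Tfap2a (5.69 and 6.11 against 4.76 and 4.63, log2 difference -0.30). Of the 29, 23 had a lower mean after C59 and 6 a higher one, with a median of -0.09, while 43.6% of all regions were lower, with a median of 0.03. Without C59 replicate 2 the lower regions numbered 17 of the 29, and without control replicate 2 they numbered 18. Differences ran from -0.40 to 0.48, about the range that holds the central 95% of all regions (-0.44 to 0.46). Much of this H3K27ac lay at other genes: 17 of the 29 regions were less than 1 kb from a start site that was not a member's, 3 were at a member's (all Tfap2a) and 9 at neither. The 9 include the Tfap2b region, whose tallest summit lay 1020 bp from the start site.

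**Figure D5:**
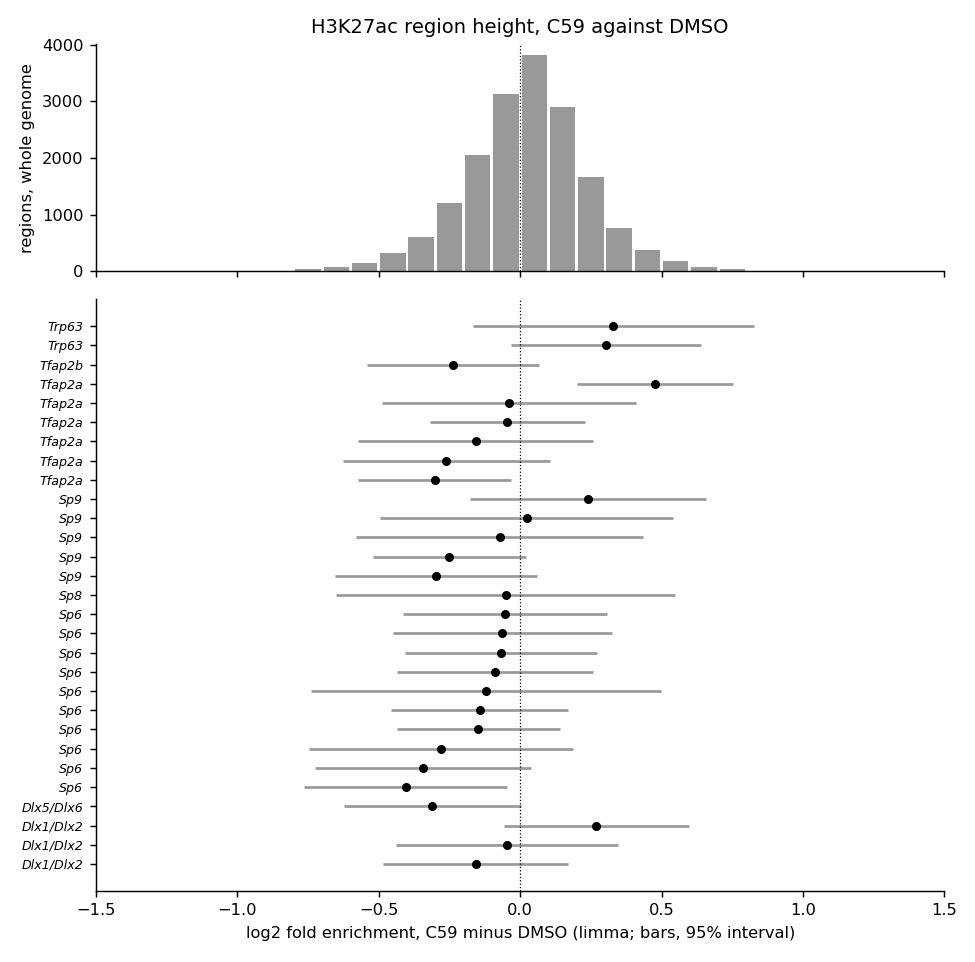
Log2 difference in H3K27ac fold enrichment, C59 minus DMSO, after centring each library on its median. The top panel counts all 17475 regions per 0.1 of the axis, and the bottom panel shows the 29 regions at the member loci with 95% limma intervals, labelled by locus. Most points lie to the left of 0, from -0.40 to 0.48, and 3 intervals exclude 0 before adjustment.

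At Sp8 a region chr12:118854902-118855314, 2.57 kb beyond the 3′ end of the gene and between genes, reached 16.0 and 11.1 in control and 15.1 and 10.6 in C59 buds, a log2 difference of -0.05 (95% interval -0.65 to 0.55). It was the only Sp8 region in all 4 lists. The intergenic region 109 kb upstream of Dlx2, which held 2 β-catenin summits in control buds, reached 13.6 and 12.9 in control and 14.8 and 10.8 in C59 buds (log2 difference -0.05, 95% interval -0.44 to 0.34). At this position the β-catenin peak (4.89 and 4.73) was absent from both C59 lists while the H3K27ac region was present in all 4. The Tfap2a intron region with a β-catenin summit likewise stood at 3.55 and 4.58 in control and 4.52 and 3.28 in C59 buds (log2 difference -0.04, 95% interval -0.49 to 0.41). In these 3 regions the replicates of 1 condition lay further apart than the means of the 2 conditions, and the intervals do not exclude changes of up to their limits.

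Finally, the members were set beside 36 other genes of the limb ectoderm and ridge, among them its FGF and WNT ligands, BMPs, adhesion molecules and keratins. In control buds 32 of the 36 had a β-catenin consensus summit within 150 kb, against 10 of 10 members and 68.4% of all genes. After C59 none of the 36 did. Over all protein-coding genes the C59 consensus count in the window had a median and an upper quartile of 0.0 and a mean of 0.029 summits. Having none was therefore usual for any gene. The median of the 36 was 3.0 summits in control buds. Summits less than 1 kb from a start site were found at 4 of the 36, namely Wnt6, Bmp7, Msx2 and Sp5, and at 9.04% of all genes. H3K27ac was found at a start site of 11 of the 36 in control and 8 in C59 buds, against 52.2% and 51.2% of all genes. The 11 were Fgf9, Bmp2, Bmp4, Bmp7, Msx1, Msx2, Rspo2, Jag2, Tfap2c, Perp and Epcam, several of which are also expressed outside the ectoderm. The 8 included En1 and Cdh1, which were not among the 11. Epcam was not among the 8 but had a peak in both C59 replicate lists. Dlx3, Dlx4, Perp and Krt5 had no β-catenin summit in the window in the control consensus list, although control replicate 2 alone had 5, 5, 1 and 1.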

How the data were processed

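β-catenin and H3K27ac ChIP-seq of mouse forelimb buds was analysed from 12 deposited peak lists, 8 of single replicates and 4 consensus lists. The 4 inputs were not used here. The authors trimmed and aligned the reads (mm10, Bowtie2 2.4.5), dropped those mapped with a quality under 30 and ran MACS2 2.2.7.1 without an input, versions per the labels. Consensus lists were called by the authors on replicates subsampled to equal depth, and keep summits inside peaks of both replicates, so a consensus value has no SD. Fold enrichment in the deposited lists is the ratio of the summit's pile-up to the local background. The authors' p and q values are given as −log10 values. Since each list holds called peaks only, a signal under the call limit leaves no value.

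The 10 genes and all gene lists were chosen with earlier results of these data known. Gene bodies and start sites came from GENCODE M21, bases from GRCm38.p6, which no peak overran. Coverage was solved from fold enrichment and p, with the solver tested on simulated peaks. Total summits per library were compared with exact two-sided permutation tests. H3K27ac regions merged over the 4 replicate lists (overlap of at least 1 bp) were fitted with limma 3.58.1 (R 4.3.3) on log2 fold enrichment of the strongest summit, centred on each library's median, over all regions with a peak in every list, with Benjamini-Hochberg adjustment over all of them and a threshold of 0.05. This fit leaves out regions lost from a condition. The fit was tested on simulated data. Shares carry 95% Wilson intervals, which cover counting error only. Named were all 10 genes, the 2 strongest β-catenin summits per locus, all summits and H3K27ac regions at a member's start site, and the strongest summit with a core. 1 of these summits is counted in the totals but is not reported here. The Python 3.11.15 steps used pandas 2.3.3 and scipy 1.17.1. Alternatives were other windows (50 and 250 kb), peak thresholds, overlaps, motif lengths, normalizations, a replicate block and leaving out each replicate. A comparison at the C59 lists' own p limit was added after the data were seen.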

Additional observations from a re-analysis of the deposited data

How the results depend on the processing

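The replicate numbers carry no stated litter or day, and the deviations of same-numbered H3K27ac libraries correlated at 0.01 over 17475 regions, so the numbers were not taken to pair the samples. With a replicate block the summit differences stayed at 39.0 for β-catenin and 12.0 for H3K27ac, 2 pairs allow no paired p under 0.5, and limma with the block again called 0 regions. In every alternative the β-catenin difference kept its direction, from 21.0 with −log10 q of at least 5 to 55.5 in a 250 kb window, and every C59 count was 0. The H3K27ac difference kept its direction too but ranged from 1.0 in the consensus lists to 17.0 without C59 replicate 1, and with −log10 q of at least 5 the libraries overlapped (6.5, exact permutation p = 0.667). The share of control H3K27ac regions also called after C59 fell from 84.4% in the consensus lists to between 63.0% and 70.5% in lists of single replicates, where it was 75.3% and 83.9% over the genome, and the cause of the gap to the genome was not tested. The share of β-catenin summits inside H3K27ac peaks was 7.14% in a 50 kb window, and 8.57% without replicate 2 and 20.9% without replicate 1. No limma setting called a region at the 8 loci, and the lowest adjusted p was 0.130, with recovered coverage, where 6 of 28 regions and 16.4% of all had an unadjusted p below 0.05. The Tfap2a start-site differences of 0.48, -0.05 and -0.16 were 0.21, -0.34 and -0.46 on that scale, and the first was 0.43 to 0.52 with a replicate left out. The third ran from -0.372 to 0.0567 with a replicate left out, the latter without C59 replicate 1. The median over the member regions stayed below 0, from -0.21 to -0.08, but the regions that were lower fell from 23 to 17 of 29 without C59 replicate 2. The other shares stayed inside their 95% intervals. A loss of β-catenin signal cannot be sized, since C59 values under 4.24-fold on background are not listed.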

Other observations

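The sites at the Sp8 and Sp9 start regions resembled each other. Among the 55 pairs of core-carrying 27-base sites, the longest run in common, read on either strand, was the 15 bases gcggcacTTCAAAGc shared by the Sp8 intron summit and the Sp9 start-site summit, with the core in capitals. The next longest run in any pair was 10 bases. The 15-base run was present in 2 of the 16193 control β-catenin summit windows of 200 bp and in 2 of 32851 RefSeq promoter windows of 300 bp, those of Sp8 and Sp9 in both searches. Sp8 and Sp9 are related genes, and the likeness was looked for after the sequences were seen, so it is a description of these letters.

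At Sp9 β-catenin and H3K27ac lay apart in the consensus lists. Its 6 control β-catenin summits lay from 131.8 kb upstream of the gene to its start site, and 0 of them fell inside an H3K27ac consensus peak of either condition. The same was so at Sp8, at Dlx5 and Dlx6 and at Tfap2b, which had 1 or 2 summits each. Over all control β-catenin summits 22.1% lay inside a control H3K27ac peak, so 0 among so few summits does not set these loci apart. An H3K27ac peak of 4.44 in C59 replicate 1 alone began beside the control β-catenin summit 102 kb upstream of Sp9. The H3K27ac regions of the Sp9 window that were present in all 4 lists were each less than 1 kb from the start site of another annotated gene.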
